A study of Mus musculus with 4 samples.

Results

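CD8 T cells of unsorted mouse pancreatic tumours were examined in single-cell RNA data. A barcode (the tag of 1 droplet) was kept with at least 500 UMIs (unique molecular identifiers, each standing for 1 captured RNA molecule), at least 250 genes and at most 20% mitochondrial UMIs. CD8 T cells were then selected by their UMIs: at least 1 UMI of the CD3 genes Cd3d, Cd3e and Cd3g together, at least 1 of Cd8a and Cd8b1 together, and 0 of the helper T cell gene Cd4 and the B cell gene Cd79a. This left 119 of 6020 barcodes of all libraries, 49 of 536 in the whole KPC-4545 library and 70 of 1217 in the whole KPC-3403 library.

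The mice were C57BL/6J. They carried orthotopic tumours of the KPC line KPC-4545 or KPC-3403, received no treatment and were sampled on day 13. KPC lines come from a mouse model of pancreatic ductal adenocarcinoma. Each line gave 1 library of the whole suspension and 1 from which cells bearing TER119, EPCAM, CD31 or CD45 had been sorted out, so a line is represented by 1 whole library, and the labels do not say how many animals went into it. The series compares ways of preparing such tumours for the study of fibroblasts, and CD45, carried by T cells, was one of the antigens sorted out.

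CD8 T cells recognise peptides on MHC class I molecules through a clonal receptor and kill target cells with perforin and granzymes. Resting cells carry Ccr7, Lef1 and Tcf7 and recirculate through lymph nodes, while cells that keep meeting antigen in a tumour take on inhibitory receptors such as PD-1 (Pdcd1), Lag3 and Tigit and the factor Tox. Some also carry receptors shared with natural killer (NK) cells, among them the heterodimer of CD94 (Klrd1) and NKG2A (Klrc1), an inhibitory receptor, and NKG2D (Klrk1), an activating one.

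The genes of these NK receptors lie side by side on mouse chromosome 6, and several of them set the CD8 T cells apart from CD4 T cells below. In the GENCODE annotation of GRCm38 Klre1 spans 129577905 to 129585827, Klrd1 129591782 to 129598775, Klrk1 129610323 to 129623864 and Klrc1 129666015 to 129678973, the first pair on the plus and the second on the minus strand. The 250 bases before the start of 3 of them are shown because these genes were higher together in CD8 than in CD4 T cells. They come from RefSeq (GRCm38.p6) and run 5′ to 3′ on the gene's strand, with capitals for the motif TGTGGT, the core bound by RUNX factors, or its reverse complement ACCACA. Klrd1 had no entry. The RefSeq start of Klre1 lies downstream of its GENCODE start, so its window falls inside the GENCODE span.
Klrk1, chr6:129623865-129624114, minus strand: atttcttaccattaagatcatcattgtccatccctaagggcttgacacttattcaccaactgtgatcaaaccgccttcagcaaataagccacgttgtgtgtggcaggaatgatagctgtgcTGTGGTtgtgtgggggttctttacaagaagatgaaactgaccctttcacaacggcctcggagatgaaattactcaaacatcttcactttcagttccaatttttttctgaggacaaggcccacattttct
Klre1, chr6:129577963-129578212, plus strand: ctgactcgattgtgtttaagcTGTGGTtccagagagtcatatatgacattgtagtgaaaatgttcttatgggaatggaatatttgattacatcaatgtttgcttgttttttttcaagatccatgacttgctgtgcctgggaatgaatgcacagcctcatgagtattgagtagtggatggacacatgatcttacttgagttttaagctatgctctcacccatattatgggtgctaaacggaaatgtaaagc
Klrc1, chr6:129678974-129679223, minus strand: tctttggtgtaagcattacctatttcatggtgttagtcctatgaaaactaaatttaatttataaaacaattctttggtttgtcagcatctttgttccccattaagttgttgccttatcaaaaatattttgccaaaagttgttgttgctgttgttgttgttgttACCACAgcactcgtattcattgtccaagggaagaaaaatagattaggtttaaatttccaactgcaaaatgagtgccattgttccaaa
Each window held 1 match on either strand. A second RefSeq start of Klre1 gave a window with 0 matches. Of all 32851 such windows 14.0% held the motif, so a match is a description of these letters only.

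The whole libraries held 5746733 (KPC-4545) and 13990046 UMIs (KPC-3403). CD8 T cells made up 9.14% of passing barcodes in KPC-4545 (95% exact Clopper-Pearson interval 6.84 to 11.9) and 5.75% in KPC-3403 (4.51 to 7.21). Of cells with a CD3 UMI they were 34.5% (49 of 142) and 29.5% (70 of 237), and of CD8 and CD4 cells together 55.7% and 56.9%. Neither enriched library held a CD8 T cell, 0 of 1692 and 0 of 2575 barcodes, which allows shares of up to 0.177% and 0.117% (3 cells). Intervals and floors cover counting error only. With 1 library per line, differences between the lines in shares or levels were not tested.

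The 1 marker not used to choose the cells was Ms4a4b, a membrane gene of T and NK cells. It had UMIs in 41 of 49 and 62 of 70 CD8 cells, against 2 of 177 and 2 of 128 B cells. This sets the cells apart from B cells and does not bear on CD8 against other T or NK cells. Both Cd8a and Cd8b1 were found in 36 of 49 and 54 of 70 cells. The CD8 genes summed to 1 UMI in 6 cells of KPC-4545 and 2 of KPC-3403, just inside the limit, and 2 and 9 cells with CD3 and CD8 UMIs stayed out for a UMI of Cd4 or Cd79a. In B cells without CD8 in their definition, 1 of 158 and 3 of 109 had a CD8 UMI, and the source of these UMIs was not tested. The median CD8 cell held 4869 UMIs and 1604 genes in KPC-4545 and 5165.5 UMIs and 1626 genes in KPC-3403, with 2.62% and 2.33% mitochondrial UMIs. Summed over cells, the CD8 T cells gave 262520 and 384892 UMIs, on which the levels below rest (UMIs of a gene per 10000 UMIs of the sum).

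A few CD8 barcodes also carried RNA of other cells. In KPC-4545, 1 barcode of 9668 UMIs had 3.22% from dendritic cell genes, with 97 UMIs of H2-Aa. In KPC-3403, 2 barcodes had 49.1% and 56.2% from haemoglobin genes and 1 of 15443 UMIs had 0.952% from collagen and other fibroblast genes, with 160 UMIs of Timp1. Barcodes with over 0.5% from another cell type's markers are called mixed here. They held 3.68% and 7.43% of the CD8 sums, 8.66% and 19.3% of the CD4 sums, and 0 and 21.2% of the NK sums. The remaining marker lists were low in the CD8 sums: macrophage and monocyte genes at 0.0381 and 0.286 per 10000 with 5 and 4 of 6 genes at 0, B and plasma cell genes at 0.533 and 0.935 with 4 and 2 of 6 at 0, and neutrophil genes at 0.0762 and 0.0779 with 2 of 4 at 0. The whole KPC-3403 library shared 139 passing barcodes with the enriched KPC-4545 library, against 6 to 11 for every other pair of libraries, and 2 of the 70 KPC-3403 CD8 cells are among these shared barcodes.

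To see what separates CD8 T cells from the lymphocytes beside them, UMI sums of CD8, CD4, NK and B cells in both whole libraries were fitted together with the line as a term. CD4 T cells (39 and 53) were chosen on CD3 and Cd4 without CD8, NK cells (21 and 33) on Ncr1 or Klrb1c without CD3, and B cells (177 and 128) on Cd79a without CD3. Genes used for choosing were left out. Of 4757 genes, 22 were higher (0.462%) and 59 lower (1.24%) in CD8 than in CD4 T cells, and 76 were higher (1.6%) and 76 lower (1.6%) than in NK cells (edgeR quasi-likelihood test, Benjamini-Hochberg adjusted p at most 0.05). The median log2 difference over all genes was 0.01 against CD4 and 0.04 against NK cells. Both contrasts share the CD8 sums. The sums of 1 library come from the same suspension, so the p-values measure how far a difference between cell types varies between these libraries, which may be technical.

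**Figure D1:**
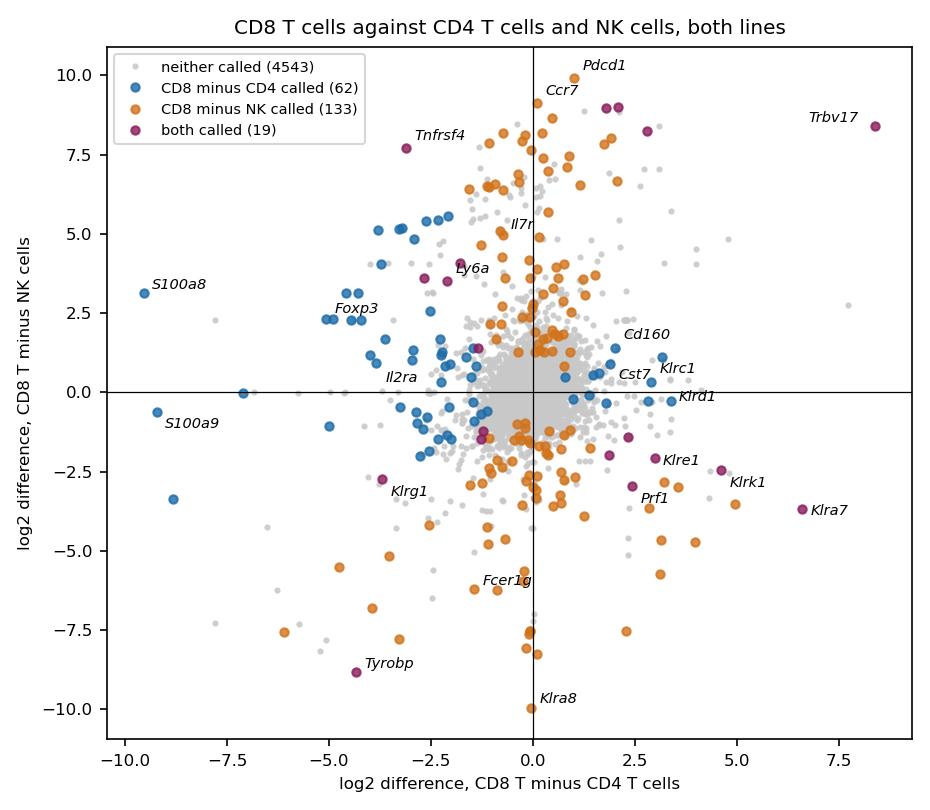
Each point is 1 of 4757 genes, with its fitted log2 difference of CD8 minus CD4 T cells on the x axis and of CD8 minus NK cells on the y axis; colours mark genes that passed in either contrast (edgeR, adjusted p at most 0.05). Both axes hold the same CD8 sums, so the shape of the cloud is not a result. Klrd1 and Klrc1 lie to the right near the height of 0, while Klrk1 and Klre1 lie to the right and below it.

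Of the lists examined, that of NK receptors had the most members higher in CD8 than in CD4 T cells. Of 10 list members, 5 were higher (against 0.462% of all genes), 2 were lower, and the median log2 difference was 2.88. Klrd1 had 128 and 219 UMIs in the CD8 sums (4.88 and 5.69 per 10000, KPC-4545 first) and 10 and 18 in the CD4 sums (0.651 and 0.529), with no overlap of the groups. Its log2 difference was 3.38 (SE 0.31, edgeR adjusted p = 2.8e-07). Klrc1 stood at 2.97 and 2.47 per 10000 in CD8 and 0.586 and 0.294 in CD4 T cells (log2 2.91, SE 0.40, edgeR adjusted p = 1.6e-04). Reads of Klrc1 and its near copy Klrc2 may be split uncertainly. Klrk1 had 32 and 33 UMIs in CD8 and 1 and 1 in CD4 T cells, a ratio of 24.8 (95% counting interval 6.59 to 209) over both lines (edgeR adjusted p = 7.5e-05). Klre1, a receptor partner in this family, had 39 and 40 UMIs against 6 and 2 (log2 2.99, edgeR adjusted p = 8.7e-04). Klra7 of the Ly49 family had 16 and 9 UMIs in 2 and 5 CD8 cells and 0 in CD4 cells, at least 6.35-fold higher at a floor of 3 UMIs over both CD4 sums. Ly49 genes are close copies of each other, and their counts are uncertain for that reason. The calls of Klrd1, Klrc1, Klrk1 and Klre1 held under all 9 alternatives, while that of Klra7 was lost with DESeq2 (adjusted p = 0.062; 7.6e-06 to 0.062 over 8 alternatives).

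Against NK cells the same list split. Klrd1 (4.88 and 5.69 against 7.28 and 7.11 per 10000; log2 -0.28, SE 0.25, edgeR adjusted p = 0.71) and Klrc1 (2.97 and 2.47 against 3.28 and 1.76; log2 0.33, SE 0.34, adjusted p = 0.75) did not pass. Klrk1 (log2 -2.45), Klre1 (-2.08), Klrc2 (-3.65) and Klra7 (-3.68) were lower in CD8 T cells, with edgeR adjusted p from 1.0e-05 to 3.2e-04. Of all 27 Klr genes annotated on chromosome 6 within 1.5 Mb of the start of Klrd1, 15 could be tested. Of these, 5 were higher (against 0.462% of all genes) and 0 lower than in CD4 T cells. Against NK cells 0 were higher and 13 lower (against 1.6% of all genes). Members such as Klra8 could be tested owing to their UMIs in NK cells, and NK cells were chosen partly on Klrb1c of this stretch. The count of 13 goes with both choices and is a description only. The 5 higher than in CD4 T cells are Klrd1, Klrc1, Klrk1, Klre1 and Klra7 again, so they add nothing to the list above. A gene tested owing to NK cells need not have UMIs in CD4 T cells, so the 0 lower is also a description only. Klra8, a Ly49 receptor gene, had 0 UMIs in CD8 T cells and 49 and 58 in NK cells, at least 94.2-fold lower (adjusted p = 3.0e-07 by edgeR and 0.58 by DESeq2, 6.1e-29 to 0.58 over 9 alternatives). Klra4, Klra3, Klra9 and Klrb1b, of the same families, had 0 to 2 UMIs per line in CD8 and 13 to 58 in NK cells and were lower as well. Tyrobp and Fcer1g, which encode signalling adaptors of NK receptors, were lower in CD8 T cells than in NK cells. Tyrobp (DAP12) had 3 and 1 UMIs against 313 and 480 in NK cells (edgeR adjusted p = 2.1e-05). Fcer1g had 18 and 5 against 324 and 348 (edgeR adjusted p = 0.015). The Fcer1g call was lost without mixed barcodes (log2 -6.32, edgeR adjusted p = 0.13) and ranged from 1.9e-53 to 0.139 over 9 alternatives.

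Klrg1, another inhibitory lectin receptor, went the other way. It had 6 and 2 UMIs in CD8 T cells, 41 and 47 in CD4 T cells and 8 and 15 in NK cells, and was lower in CD8 than in CD4 T cells (log2 -3.70, SE 0.51, edgeR adjusted p = 1.9e-04) and than in NK cells (log2 -2.73, adjusted p = 0.011; 0.11 by DESeq2, the highest over 9 alternatives). Tyrobp was also called lower than in CD4 T cells (log2 -4.34, edgeR adjusted p = 0.0092). Its 46 and 23 CD4 UMIs lay in 2 cells of each line, and without mixed barcodes the difference was -2.76 (edgeR adjusted p = 0.21).

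Perforin was higher in CD8 T cells than in CD4 T cells and lower than in NK cells, and most other genes of killing did not pass. Of 12 cytotoxic list members tested, 2 were higher (against 0.462% of all genes) and 0 lower than in CD4 T cells (median log2 1.33). Than in NK cells 0 were higher and 3 lower (against 1.6% of all genes, median -1.31). Prf1, perforin, stood at 0.457 and 0.727 per 10000 in CD8, 0.195 and 0.0882 in CD4 and 4.92 and 5.62 in NK cells, higher than in CD4 (log2 2.44, SE 0.56, edgeR adjusted p = 0.022) and lower than in NK cells (log2 -2.95, SE 0.35, adjusted p = 1.5e-05). Serpinb6b, an intracellular protease inhibitor, followed the same order at 1.30 and 1.53, 0.260 and 0.559, and 5.23 and 7.44 per 10000, and passed both ways. Serpinb9, which protects killer cells from granzyme B, was lower than in NK cells (log2 -2.68, edgeR adjusted p = 1.7e-05). Cst7, the protease inhibitor cystatin F, was outside the list and stood at 4.15 and 3.48 per 10000 against 1.11 and 1.15 in CD4 T cells (log2 1.90, SE 0.31, edgeR adjusted p = 0.0010). Of these, the call of Prf1 against CD4 T cells was lost with DESeq2 (adjusted p = 0.39; 0.0017 to 0.39 over 9 alternatives).

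The abundant effector transcripts did not pass either contrast. Ccl5, a chemokine gene, was the most abundant of the lists' cytokines at 58.2 and 91.4 per 10000, with 32.9 and 4.32 in CD4 and 92.6 and 153 in NK cells. Nkg7, a cytotoxic granule membrane gene, was even between lines at 23.8 and 24.8 and was found in 42 of 49 and 65 of 70 cells, against 8.98 and 2.65 per 10000 in CD4 T cells (log2 2.49, SE 0.79, edgeR adjusted p = 0.43). Gzma was found in 9 and 16 cells only, and 1 cell held 182 of its 353 UMIs in KPC-4545. Gzmb stood at 2.44 and 3.04 per 10000 and Gzmk at 1.75 and 1.48. Xcl1, a chemokine that attracts cross-presenting dendritic cells, stood at 9.22 and 11.8, with 151 of 242 and 234 of 455 UMIs in 1 cell of each line; the KPC-3403 cell is a shared barcode. Ifng had 27 and 23 UMIs and Tnf 0 and 4. Il2 and Gzmf had 0 UMIs, where 3 UMIs set the floor, and Gzmc had 0 and 1.

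**Figure D2:**
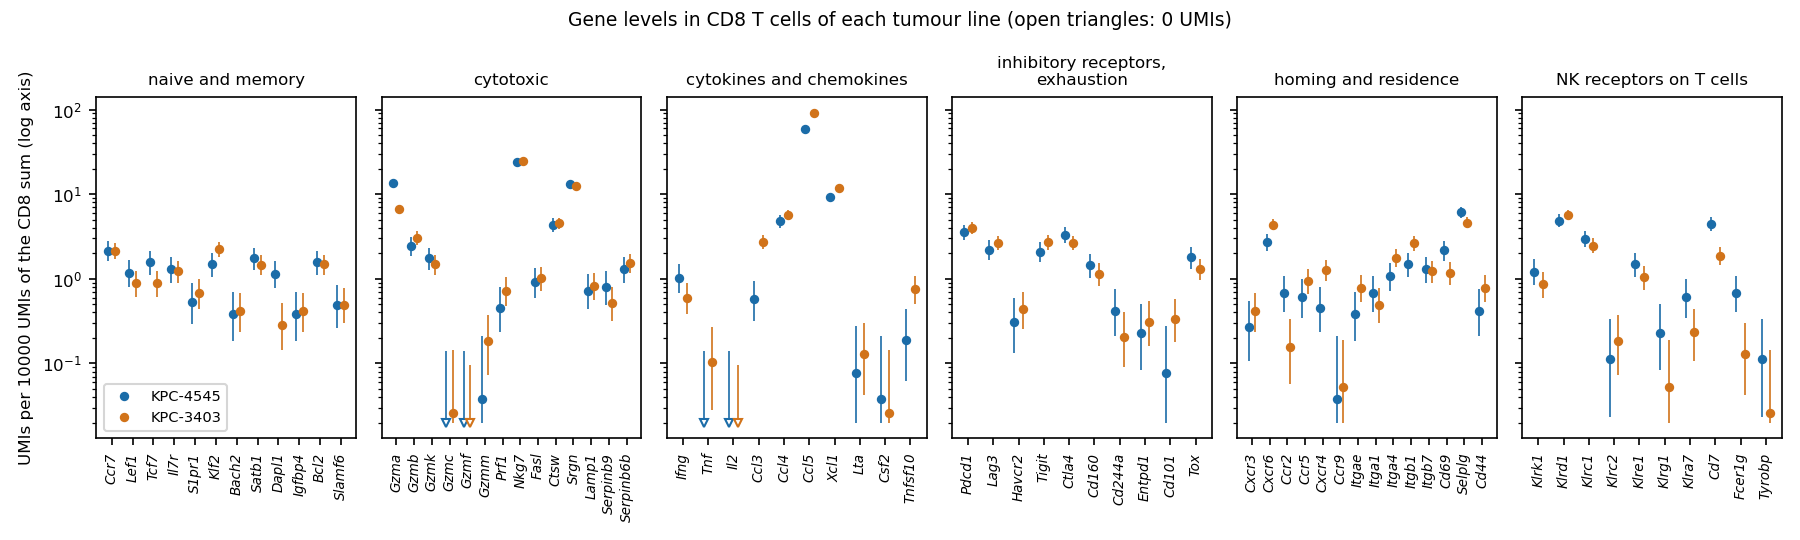
Levels of 6 gene lists in the CD8 sums of KPC-4545 (blue) and KPC-3403 (orange) on a log axis, with exact 95% Poisson intervals that cover counting error only; open triangles mark 0 UMIs. Ccl5 and Nkg7 stand highest in both lines, and Il2 and Gzmf lie at 0 in both.

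Of the inhibitory receptors, Pdcd1 and Lag3 were higher in CD8 T cells than in NK cells and Cd160 was higher than in CD4 T cells. Pdcd1 had 94 and 154 UMIs in CD8 T cells (3.58 and 4.0 per 10000) and 0 in NK cells, at least 31.3-fold higher at a floor of 3 UMIs over both NK sums (edgeR adjusted p = 7.8e-07), while CD4 T cells stood at 2.80 and 1.68 (log2 1.02, SE 0.30, adjusted p = 0.11). Lag3 stood at 2.21 and 2.65 in CD8, 1.63 and 0.823 in CD4 and 0.205 and 0.406 in NK cells, and was higher than in NK cells (log2 3.07, edgeR adjusted p = 6.9e-04). Against CD4 T cells Cd160, which binds HVEM, was the only 1 of 9 list members tested that passed, where 0.462% of all genes were higher. It stood at 1.45 and 1.14 against 0.391 and 0.323 (log2 2.02, SE 0.43, edgeR adjusted p = 0.011), and the list's median log2 difference was 1.02. The Cd160 call was lost with DESeq2 (adjusted p = 0.29; 2.9e-04 to 0.29 over 9 alternatives), while those of Pdcd1 and Lag3 held under all 9. Ctla4 stood at 3.31 and 2.68 in CD8 against 10.7 and 4.09 in CD4 T cells and did not pass. Havcr2 (TIM-3) was low, with 8 and 17 UMIs.

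Among costimulatory receptors, Tnfrsf4 and Tnfrsf18 were lower in CD8 than in CD4 T cells. Of 8 members tested against CD4 T cells, 0 were higher and 2 lower (against 1.24% of all genes), with a median log2 difference of -0.73. Tnfrsf4 (OX40) stood at 1.07 and 0.650 per 10000 in CD8 against 9.77 and 6.94 in CD4 T cells (log2 -3.10, SE 0.29, edgeR adjusted p = 6.5e-07), and Tnfrsf18 (GITR) at 1.68 and 1.82 against 7.88 and 4.26 (log2 -1.51, adjusted p = 0.0067). Both are known from regulatory T cells. Of the regulatory and helper list, Foxp3 and Il2ra were lower (1 and 0 UMIs of Foxp3 in CD8 against 11 and 26; log2 -3.86 for Il2ra), and Cd40lg had 0 UMIs in CD8 and 8 and 17 in CD4 T cells. Penk (proenkephalin), Il1rl1 (the IL-33 receptor), Il1r2 and Rrad were among the other genes lower than in CD4 T cells, with log2 differences of -4.0, -3.73, -3.29 and -3.27. DESeq2 did not call Tnfrsf18, Foxp3, Il2ra, Il1rl1 and Il1r2 (adjusted p from 0.12 to 0.52), and edgeR called each in the 8 other alternatives, while Tnfrsf4 and Penk were called in all 9. Rrad was called in 8 of 9 (highest adjusted p = 0.053). S100a8, S100a9 and G0s2, genes of neutrophils, headed the same direction: S100a9 had 1 and 2 UMIs in CD8 and 612 and 980 in CD4 T cells, and G0s2 0 against 50 and 34. They were no longer among the genes tested once mixed barcodes, which include 2 CD4 barcodes with neutrophil RNA, were left out.

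Several T cell receptor and signalling genes were higher in CD8 T cells than in NK cells. NK cells were chosen for having no CD3 UMI, so these differences go with the choice of cells. Trac, the receptor alpha constant gene, had 97 and 161 UMIs against 0 and 2 (log2 5.69, SE 0.56, edgeR adjusted p = 1.1e-06). Lat, Cd5 and Trbc2 were also among the 5 genes of the same list of 14 that were higher (against 1.6% of all genes, 0 lower, median log2 0.96). Trbc1, a beta chain constant gene, did not pass (2.40 and 2.62 against 2.15 and 2.17 per 10000). Cd6, a relative of Cd5 and like it a brake on receptor signalling, had 26 and 45 UMIs against 0. Ccr7, the lymph node homing receptor, had 56 and 82 UMIs in CD8 and 0 in NK cells, at least 17.4-fold higher, and Il7r was higher as well (log2 4.96, edgeR adjusted p = 3.8e-04). Gm156 and Gm8369, of no stated function here, had 53 and 73 and 41 and 62 UMIs against 0 in NK cells. Eomes, a transcription factor of killer cells, had 9 and 15 UMIs against 23 and 52 (log2 -2.83, edgeR adjusted p = 5.4e-04), and the chemokine receptor gene Ccr2 had 18 and 6 against 30 and 28 (log2 -2.54, adjusted p = 0.0010). Cma1, Serpinb9b and Vegfa were the other named genes lower than in NK cells, with 0 to 1 UMIs per line in CD8 and 6 to 28 in NK cells. DESeq2 did not call Il7r, Eomes, Cma1 and Serpinb9b (adjusted p from 0.076 to 0.83), Ccr2 was lost with no replicate block (edgeR adjusted p = 0.059), and the highest adjusted p of Ccr7 over 9 alternatives was 0.28.

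Against CD4 T cells none of 12 naive and memory genes, 14 receptor signalling genes or 13 homing genes passed, with list medians of -0.21, 0.45 and -0.13. Cell cycle genes were higher than in NK cells for 3 of 11 members (Stmn1, Birc5 and Ube2c), against 1.6% of all genes. In 1 cell lay 39 of the 62 KPC-3403 UMIs of Ube2c, and in 1 cell 20 of the 30 KPC-4545 UMIs of Stmn1. The Ube2c call was lost with no replicate block and without shared barcodes (edgeR adjusted p = 0.60 and 0.38). That of Birc5 was lost with no replicate block (edgeR adjusted p = 0.054). Of the same 11, H2afz alone was lower than in CD4 T cells, against 1.24% of all genes (7.69 and 7.61 against 15.7 and 23.6 per 10000; log2 -1.13, edgeR adjusted p = 0.014). The interferon-induced gene Ly6a lay between, at 2.67 and 2.44 per 10000 in CD8, 18.1 and 8.12 in CD4 and 0.308 and 0.203 in NK cells, and passed in both contrasts. The H2afz call was lost with no replicate block (edgeR adjusted p = 0.065; 0.0015 to 0.065 over 9 alternatives), and DESeq2 called none of Stmn1, Birc5 and Ube2c (adjusted p from 0.13 to 0.20). Of 8 MHC class I genes none passed in either contrast. Fosb and Nr4a1, immediate early genes, were lower than in CD4 T cells (log2 -2.60 and -1.22, edgeR adjusted p = 4.4e-04 and 0.019), and without mixed barcodes they were at -1.57 and -0.90 (edgeR adjusted p = 0.072 and 0.13). Over 9 alternatives their adjusted p ranged from 4.2e-08 to 0.12 and from 0.0035 to 0.177.

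The CD8 T cells were not alike within a tumour. At least 1 UMI of Pdcd1, Lag3, Havcr2 or Tigit was found in 30 of 49 (61.2%) and 47 of 70 cells (67.1%), and of Gzma, Gzmb or Prf1 in 20 (40.8%) and 39 (55.7%). In B cells, at medians of 3175 and 3071 UMIs, the first set was found in 0 of 177 and 5 of 128 and the second in 3 and 3 cells.

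Pdcd1 was found in 25 of 49 (51.0%) and 38 of 70 cells (54.3%), or 28.2% and 30.1% with each cell thinned to 1000 UMIs (47 and 67 cells with enough). It had 0 UMIs in 177 B cells and 1 UMI in 128. Cells with and without a Pdcd1 UMI are set side by side below as a description, since most cells lie within a few UMIs of the division. Their median depths were 5263 against 4550.5 UMIs in KPC-4545 and 5165.5 against 5111 in KPC-3403.

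Recirculation genes were found mostly in cells without Pdcd1. Klf2, a factor that keeps resting cells recirculating, was found in 2 of 25 cells with Pdcd1 against 18 of 24 without it in KPC-4545 and in 8 of 38 against 22 of 32 in KPC-3403, and its target S1pr1, the receptor for leaving tissue, in 2 against 10 and 4 against 14. Tcf7 (TCF1) was found in 3 against 14 and 3 against 12 cells, Lef1 in 2 against 11 and 5 against 13, and Il7r in 5 against 14 and 7 against 10. All 5 genes had fewer cells on the Pdcd1 side in both lines.

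Inhibitory and tissue genes lay on the other side. Lag3 was found in 18 of 25 cells with Pdcd1 against 3 of 24 without in KPC-4545, and in 26 of 38 against 4 of 32 in KPC-3403. Tigit was found in 16 against 3 and 29 against 7 cells, Tox in 17 against 2 and 18 against 8, and Havcr2 in 4 against 1 and 10 against 0. Tnfrsf9 (4-1BB), a sign of recent receptor signalling, was found in 18 against 4 and 23 against 3. For Cxcr6, a chemokine receptor of tissue-resident cells, the counts were 16 against 4 and 28 against 12, and for the collagen-binding integrin Itga1 9 against 2 and 12 against 1. Klrc1 followed Pdcd1 (18 against 2 and 30 against 9 cells), as did Cd160 (13 against 3 and 16 against 1), while Klrd1 was frequent on both sides (19 against 12 and 33 against 20). Ikzf2 (Helios) was found in 17 against 6 and 18 against 2 cells. After thinning to 1000 UMIs, Lag3 was at 26.1% against 6.93% and 30.5% against 6.95%, and Klf2 at 1.58% against 29.2% and 7.73% against 33.1%.

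Effector genes were shared unevenly between the sides. Gzmk was found in 11 against 3 and 21 against 3 cells and Ccl3 in 10 against 0 and 11 against 3, but Gzmb in 8 against 5 and 14 against 7, and Gzma in 6 against 3 and 10 against 6. Nkg7 was found in most cells of both sides (24 against 18 and 38 against 27) at 34.5 against 9.24 and 33.6 against 12.4 per 10000. Mki67, a marker of cycling cells, was found in 4 and 6 cells, all of them with a Pdcd1 UMI, at medians of 7387 and 7846.5 UMIs per cell. The receptor genes used to choose the cells were higher on the Pdcd1 side as well: Cd8a stood at 13.5 against 4.57 and 14.6 against 5.06 per 10000, and Cd3e at 13.0 against 5.83 and 15.4 against 7.31.

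**Figure D3:**
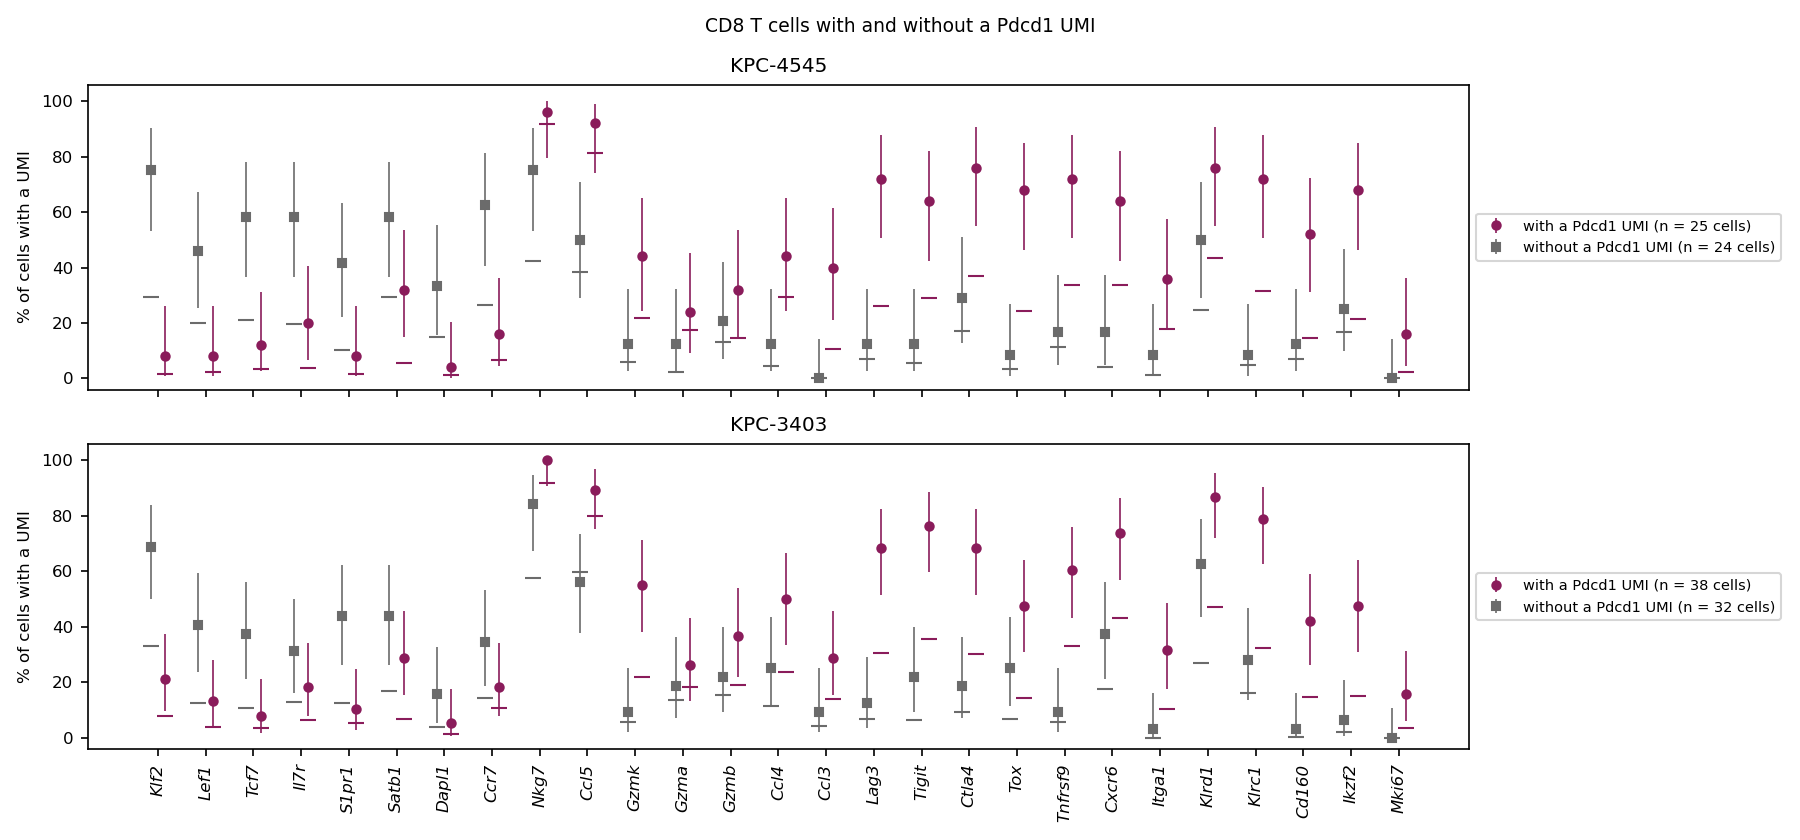
Share of CD8 T cells with a UMI of each gene, in cells with (purple) and without (grey) a Pdcd1 UMI, with exact 95% intervals over cells; dashes mark the share after thinning each cell to 1000 UMIs. From Klf2 to Ccr7 the grey squares lie above the purple circles in both lines, and from Lag3 to Ikzf2 they lie below.

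Cells were also divided by Ccr7, again as a description. It was found in 19 of 49 (38.8%) and 18 of 70 cells (25.7%), and together with Pdcd1 in 4 and 7 cells, while 9 and 21 cells had neither. Ccl5 stood at 7.74 per 10000 in cells with Ccr7 against 101 in cells without it in KPC-4545, and at 19.9 against 129 in KPC-3403. Cxcr6 was found in 4 of 19 against 16 of 30 and 4 of 18 against 36 of 52 cells, and Itga1 in 0 against 11 and 1 against 12. Gzmb did not follow in both lines, with 4 of 19 against 9 of 30 cells in KPC-4545 and 0 of 18 against 21 of 52 in KPC-3403. Dapl1, a gene of resting CD8 T cells, was found in 9 and 7 cells, of which 7 and 4 had Ccr7 and 0 had Cxcr6.

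Between the lines most levels lay close. Of 3570 genes with at least 20 UMIs over both CD8 sums, 153 were more than 2-fold higher in KPC-4545 (4.29%) and 220 in KPC-3403 (6.16%), and the median log2 ratio was 0.00. Among list members with 20 UMIs, 0 of 7 inhibitory, 0 of 8 costimulatory, 0 of 14 receptor signalling, 0 of 8 MHC class I and 0 of 14 immediate early and heat shock genes were past 2-fold. Other lists had members past it, KPC-4545 first. NK receptor genes gave 3 and 0 of 7, cytokine genes 0 and 2 of 6 and homing genes 1 and 2 of 13. Naive and memory genes gave 1 and 0 of 13 and cytotoxic genes 1 and 0 of 11. Interferon genes gave 1 and 0 of 9 and regulatory and helper genes 1 and 0 of 2. Transcription factors gave 0 and 2 of 6 and cell cycle genes 1 and 3 of 9. Without mixed and shared barcodes the last were 0 and 0 of 4 and 2 and 0 of 6. Pdcd1 at 3.58 and 4.0, Ccr7 at 2.13 and 2.13 and Klrd1 at 4.88 and 5.69 per 10000 had overlapping counting intervals. The equal Ccr7 levels depended on 1 KPC-4545 cell with 21 of 56 UMIs. Without the fullest cell of each line Ccr7 stood at 1.38 and 1.74. With 1 library per line these are values of 2 libraries, with no test.

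Many of the genes furthest apart rested on 1 cell. H2-Aa had 97 UMIs in 1 KPC-4545 cell and 0 in KPC-3403, and 180 of 189 Cd74, 60 of 60 H2-Eb1 and 34 of 34 H2-Ab1 UMIs of KPC-4545 also lay in 1 cell. Cd83 had 22 UMIs in 3 cells. In KPC-3403 Hbb-bs had 3659 UMIs, 1941 of them in 1 cell, and Hba-a1, Hba-a2 and Hbb-bt did likewise. The haemoglobin genes are close copies, and their separate counts are uncertain. Timp1, Bgn, Sparc, Saa3 and Fn1 of stromal cells had nearly all their UMIs in 1 KPC-3403 cell (160 of 165 for Timp1). Fabp5 (57 of 72 UMIs) and Ccl1 (134 of 143) also rested on 1 cell. The 7 KPC-3403 cells with Ccl1, a chemokine gene, all had Xcl1. Trav8n-2 and Trbv23 lay in 4 and 3 cells of KPC-4545 alone.

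With mixed and shared barcodes left out and UMIs required in 10 cells, a rule added after these values were seen, other genes led. Ccl3 stood at 0.554 per 10000 in KPC-4545 and 3.23 in KPC-3403, though 74 of 105 KPC-3403 UMIs were in 1 cell, and Ccl5 at 60.0 and 104. Rgs16, which dampens G protein signalling, had 18 UMIs in 9 cells and 80 in 25 (0.712 and 2.46 per 10000), and in CD4 T cells, with the same barcodes left out, it was higher in KPC-4545 (1.78 and 0.584). Esf1, Fmc1, Glul and Gars were the other genes higher in KPC-3403, with 1 to 5 UMIs in KPC-4545 and 19 to 30 in KPC-3403. Dapl1 was higher in KPC-4545 (1.19 and 0.307 per 10000, 9 and 6 cells), as were Osgin1, Mrpl16, Pgd, Rrp7a and Dut, and Hist1h2ap with 22 of its 34 UMIs in 1 cell. The mitochondrial gene mt-Atp8 was 5.05-fold higher in KPC-4545 (95% counting interval 3.29 to 8.02), and with the same barcodes left out it was 4.81-fold higher in CD4 T cells and 5.79-fold in B cells. Hbb-bs was still higher in KPC-3403 (1.19 and 3.69 per 10000). With the same barcodes left out it was also higher there in CD4 T cells (2.9 and 4.5) and B cells (2.4 and 4.0). Hist1h2ap was likewise higher in KPC-4545 in B cells (5.48-fold), but not in CD4 T cells (a ratio of 0.781).

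Among list members, Cd7 (4.46 and 1.87 per 10000), Ikzf2 (2.59 and 1.04) and Gzma (13.4 and 6.65) were past 2-fold on the KPC-4545 side. Cxcr4 (0.457 and 1.27), Itgae (CD103; 0.381 and 0.779), Tbx21 (T-bet; 0.267 and 0.598) and Tnfsf10 (TRAIL; 0.190 and 0.753) were past it on the KPC-3403 side. Without its largest cell in each line Gzma stood at 6.76 and 4.69 and Cd7 at 2.57 and 1.68, both within 2-fold. Cxcr6 stood at 2.70 and 4.36, in 20 of 49 and 40 of 70 cells.

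**Figure D4:**
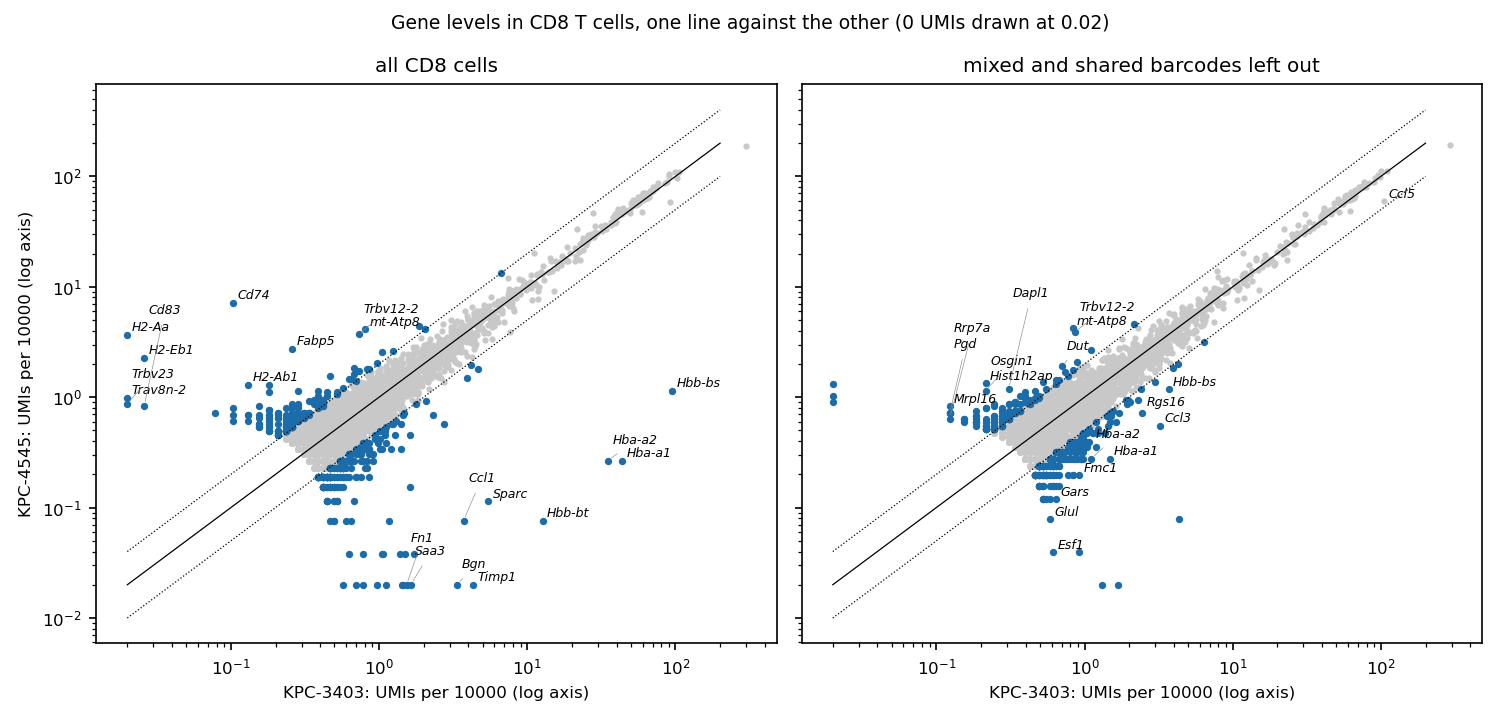
Gene levels in the CD8 sums of KPC-4545 (y axis) and KPC-3403 (x axis), per 10000 UMIs on log axes, with all CD8 cells (left) and with mixed and shared barcodes left out (right); blue points are past 2-fold, shown by dotted lines, and 0 UMIs are drawn at 0.02. H2-Aa and Hbb-bs stand far off on the left, and on the right mt-Atp8 and Trbv12-2 lie furthest above the dotted line among abundant genes.

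Receptor V genes were spread over many members in both lines. They were read from the 5′ counts, not from assembled receptors, and do not show clones. A UMI of exactly 1 Trbv gene was found in 35 of 49 (71.4%) and 49 of 70 cells (70.0%), of more than 1 in 11 and 14, and of none in 3 and 7. In all, 15 and 18 of 35 Trbv genes and 23 and 32 of 128 Trav genes were seen. Trbv12-2 led in KPC-4545 with 15 cells (30.6%, 95% exact interval 18.3 to 45.4), against 6 cells (8.57%, 3.21 to 17.7) in KPC-3403. Trbv4 led in KPC-3403 with 16 cells (22.9%, 13.7 to 34.4), against 5 (10.2%, 3.40 to 22.2) in KPC-4545. Among CD4 T cells Trbv12-2 was found in 5 of 39 and 4 of 53 cells and Trbv4 in 2 of 39 and 0 of 53. Trbv13-2 was found in 8 and 12 cells. Trbv12-2 has a near copy in Trbv12-1, and the split between them is uncertain. Trbv12-2, Trbv4 and Trbv13-2 had 0 UMIs in the B and NK cells. Trbv17, which had the largest fitted difference among the named genes higher than in CD4 T cells (33 and 53 UMIs against 0, at least 21.9-fold), lay in only 2 and 1 CD8 cells, and its adjusted p was 8.0e-05 by edgeR and 0.83 by DESeq2, the highest over 8 alternatives (the lowest was 5.5e-15).

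**Figure D5:**
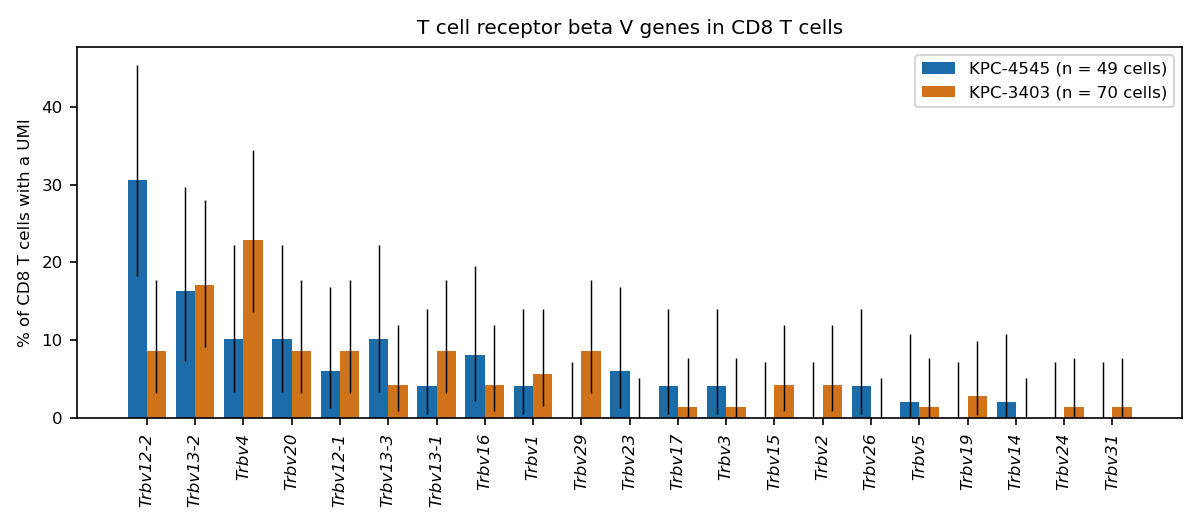
Share of CD8 T cells with a UMI of each Trbv gene in KPC-4545 (blue, 49 cells) and KPC-3403 (orange, 70 cells), with exact 95% intervals over cells. Trbv12-2 reaches 30.6% in KPC-4545 and Trbv4 22.9% in KPC-3403.

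Cells with the leading V gene carried Pdcd1 in 11 of 15 against 14 of 34 other cells in KPC-4545 (Trbv12-2), and in 12 of 16 against 26 of 54 in KPC-3403 (Trbv4). Ccr7 was found in 4 of 15 against 15 of 34 and in 1 of 16 against 17 of 54 cells, and Cxcr6 in 10 of 15 against 10 of 34 and in 13 of 16 against 27 of 54. Ccl5 was found in 12 of 15 against 23 of 34 and in 12 of 16 against 40 of 54 cells, and Gzma in 4 of 15 against 5 of 34 and in 1 of 16 against 15 of 54. The other cells include the 3 and 7 with no Trbv UMI, and these counts were not thinned to equal depth. Cd3e was also higher in cells with Pdcd1, and whether the counts are particular to these V genes was not tested. Exactly 1 Trbv and 1 Trav gene were found in 13 cells of KPC-4545, in 13 different pairs, and in 22 cells of KPC-3403, in 18 pairs. The 4 pairs seen in 2 cells each were Trbv12-1 with Trav7d-3, Trbv12-2 with Trav19, Trbv12-2 with Trav6n-6 and Trbv20 with Trav12-2. With at least 2 UMIs per V gene, Trbv12-2 was found in 20.4% of KPC-4545 and Trbv4 in 17.1% of KPC-3403 cells.

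Transcripts of the gamma chain locus were also present. Trgv2 had 28 and 51 UMIs in 10 and 17 CD8 cells, against 6 and 3 UMIs in CD4 and 0 in NK cells (log2 2.81 against CD4, edgeR adjusted p = 0.010, and 0.89 by DESeq2, the highest over 9 alternatives, the lowest being 1.9e-06). Tcrg-C2, a gamma constant gene, was found in 7 and 13 CD8 cells, while Trdc, the delta constant gene that marks gamma-delta T cells, was found in 1 and 1.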

How the data were processed

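The unit is the UMI count per gene and barcode, as deposited by the authors and not normalized. The submitters' processing notes name Cell Ranger 6.1.1 and mm10, and per the file headers the version string is Cell Ranger 4. Tissue was dissociated and run with 10x 5′ chemistry, per the labels' protocols. Barcodes were filtered and cells selected as described, with no doublet caller, and all 32285 genes were read. UMI sums of 8 cell type and library pairs were tested with edgeR 4.0.16 in R 4.3.3 (TMM, filterByExpr, glmQLFit and glmQLFTest, line plus cell type, Benjamini-Hochberg at 0.05), checked on simulated data. DESeq2 1.42.0 was an alternative. The line is a block because the sums of a line come from the same library. Lists are described by counts and medians, and levels between lines by exact counting intervals. Scripts ran in Python 3.11.15.

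Members, lists and rules were chosen with earlier results of these data known. Named genes are, per contrast and direction, up to 10 that passed with the largest log2 difference, given agreement in sign of both lines and 50 CPM or more on average; between lines, 10 per direction by the counting bound nearest to no difference; any list member; and up to 5 V genes per line. Gene positions are those of GENCODE on GRCm38, and promoter windows are RefSeq's. Alternatives changed the normalization, the filter, the tool, the block, the sums fitted, the cell and mitochondrial limits, the CD8 minimum, thinning, the scaling between lines and the largest cell. Leaving out mixed or shared barcodes was added after the data were seen. Some genes are not reported here.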

Additional observations from a re-analysis of the deposited data

Results flagged for a closer look

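Of 136 list genes with at least 10 UMIs per line in the CD8 and CD4 sums together, 6 had CD8 over CD4 ratios on opposite sides of 1 in the lines with counting intervals that exclude 1, and of 125 against NK cells 4 did. The differences were not tested, since each line is 1 library, and no value is given for Ccl3 against CD4 T cells, which had 0 UMIs in CD4 cells of KPC-4545. Each difference below is the log2 ratio of KPC-4545 minus that of KPC-3403.

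Gzmb was 0.227 of the CD4 level in KPC-4545 and 5.44 times it in KPC-3403 (difference -4.5833), with 165 UMIs in 5 CD4 cells of KPC-4545. Tigit was at 0.536 and 2.04 (-1.9286), Ccl4 at 2.30 and 0.827 (1.4779), and Ccr7 at 1.82 and 0.665 (1.4536), where the KPC-4545 ratio was 1.08 without mixed barcodes. For Ccl4, 1 CD8 cell held 79 of 126 UMIs in KPC-4545 and 123 of 220 in KPC-3403, which the counting intervals do not cover. Ifi27l2a was at 0.212 and 1.15 (-2.4449), and at 0.870 in KPC-3403 without shared barcodes.

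Against NK cells Isg20 was at 0.506 and 6.91 (-3.7709), with 2 UMIs in NK cells of KPC-3403. Ccl3 was at 0.398 and 1.85 (-2.2174), Hspa8 at 1.42 and 0.740 (0.944), and Xcl1 at 0.607 and 2.61 (-2.1027), the last being 1.09 in KPC-3403 without shared barcodes. Most Ccl3 UMIs of the KPC-3403 CD8 cells lay in 1 cell, which the counting intervals do not cover. Without that cell Ccl3 stood at 0.85 per 10000 in CD8 T cells of KPC-3403, against 1.5 in NK cells. It was then below the NK level in both lines.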

How the results depend on the processing

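Of the recomputed counts and shares, 96 stayed within 1.5 times or the counting interval of the reported value and 8 did not. The CD8 and CD4 difference gave 81 genes, 45 with no replicate block, 25 with DESeq2, 148 with only these cell types fitted and 207 without the filter. The CD8 and NK difference gave 152 genes, 63 with DESeq2, 231 with only these cell types fitted and 266 without the filter. The cause was not tested, but fewer sums or more genes entered the last settings by construction. The count of genes past 2-fold higher in KPC-4545 was 91 in place of 153 when the largest cell of each gene was left out. The H2-Ab1 ratio of KPC-4545 over KPC-3403 turned from 9.97 to 0 without the largest cell and without mixed and shared barcodes. Among named genes between cell types, 632 recomputed values kept direction and call, 63 kept direction only and 0 reversed. Without 1 library no residual degree of freedom remains, so those values have no test: 52 lay within the spread between the lines, 108 did not and 0 reversed. They are ratios of 1 line with a constant added to both levels, which the fitted values do not carry. This pulls ratios against few UMIs toward no difference: Pdcd1 against NK cells was 9.90 fitted and 5.20 and 5.36 in the lines. The 108 therefore do not show reliance on 1 library. Genes with the largest differences were chosen for agreement in sign, which limits reversals. More than in any other setting, calls were lost with DESeq2, also for Gm156 against CD4 T cells (adjusted p = 0.77) and for Icos and Ikzf2 against NK cells (0.22 and 0.22). Ratios between lines against 0 UMIs were not recomputed. Depth limits genes of a few UMIs, since 119 cells gave the CD8 sums.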

Other observations

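Many cells with a CD3 UMI had UMIs of neither CD8 gene nor Cd4, 52 of 142 in KPC-4545 and 103 of 237 in KPC-3403. They entered no comparison here. In the enriched libraries 8 and 7 barcodes had a CD8 UMI without CD3, and 3 and 0 barcodes had a CD3 UMI.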
